A study of Macaca mulatta with 22 samples.

Results

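Follicles that had not ruptured 36 h after an ovulatory dose of hormone were compared with follicles taken before that dose, in female rhesus macaques (Macaca mulatta). The comparison rests on 10 of the 22 arrays of the study, 4 titled as pre-ovulatory at 36 h and 6 titled as 0 h, and each array held the RNA of 1 dominant follicle. Per the labels' protocols, all females received the GnRH antagonist Acyline with 30 IU each of recombinant human FSH and LH once serum estradiol reached 100 to 120 pg/ml, so both groups matured under these gonadotropins. The unruptured 36 h follicles also received 1000 IU of recombinant human chorionic gonadotropin (hCG), and the 0 h follicles received none. The other groups of the study, used below only for comparison, are 12 h, 24 h and ruptured 36 h follicles, with 4 arrays each. Sample titles call every sample a follicle, while the descriptions of all but 1 of these 10 arrays speak of a developing corpus luteum, the gland that forms after ovulation. The labels do not say that each follicle came from a separate animal, so the p-values cover only the variation among them.

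hCG acts on the receptor for luteinizing hormone on theca and granulosa cells, the steroid-making layers around the oocyte. The signal shuts down estrogen production, stops granulosa cell division, turns the cells towards progesterone synthesis and sets off a local inflammation-like response, which loosens the follicle wall. The opening of the wall, ovulation, comes last.

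Levels are log2 intensities, on which a difference of 1 is 2-fold, and changes are the unruptured 36 h mean minus the 0 h mean with the standard error (SE) of a limma fit over all 22 arrays. A probe set or gene is called where its adjusted p is under 0.05. Array medians lay between 26.1 and 26.7 on the linear scale, and the 3′ minus 5′ signal, an index of RNA breakdown, was 0.334 ± 0.047 in unruptured 36 h and 0.328 ± 0.041 in 0 h follicles (SD, n = 4 and 6). Correlations of pairs of arrays ran from 0.892 to 0.910 within the unruptured group, from 0.890 to 0.913 within the 0 h group and from 0.880 to 0.908 between them. Among follicle genes, the inhibin subunit INHA stood at percentile 97.5 of probe sets in unruptured 36 h and 99.5 in 0 h follicles, and the egg coat gene ZP4 at 84.3 and 87.9.

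Of 52766 probe sets, 2492 (4.72%) were called, 1095 (2.08%) higher and 1397 (2.65%) lower in unruptured 36 h follicles. The change was at least 2-fold for 838 of them, 388 higher and 450 lower. Without unruptured replicate 3 the count was 1423, and without unruptured replicate 4 it was 1437. In terms of genes, each given by its brightest probe set, 474 of 14132 (3.35%) rose and 540 (3.82%) fell, and the median change over all genes was 0.02. Called or not, 7387 genes had a positive change and 6745 a negative one. The counts of list members below stand beside these shares. The arrays of the groups did not overlap for 1728 genes (12.2%). The steepest losses were enzymes that make androgens and estrogens, and the steepest gains were an EGF-like ligand, a cortisone-activating enzyme and an IGF binding protein, as the plot of change against level shows.

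**Figure D1:**
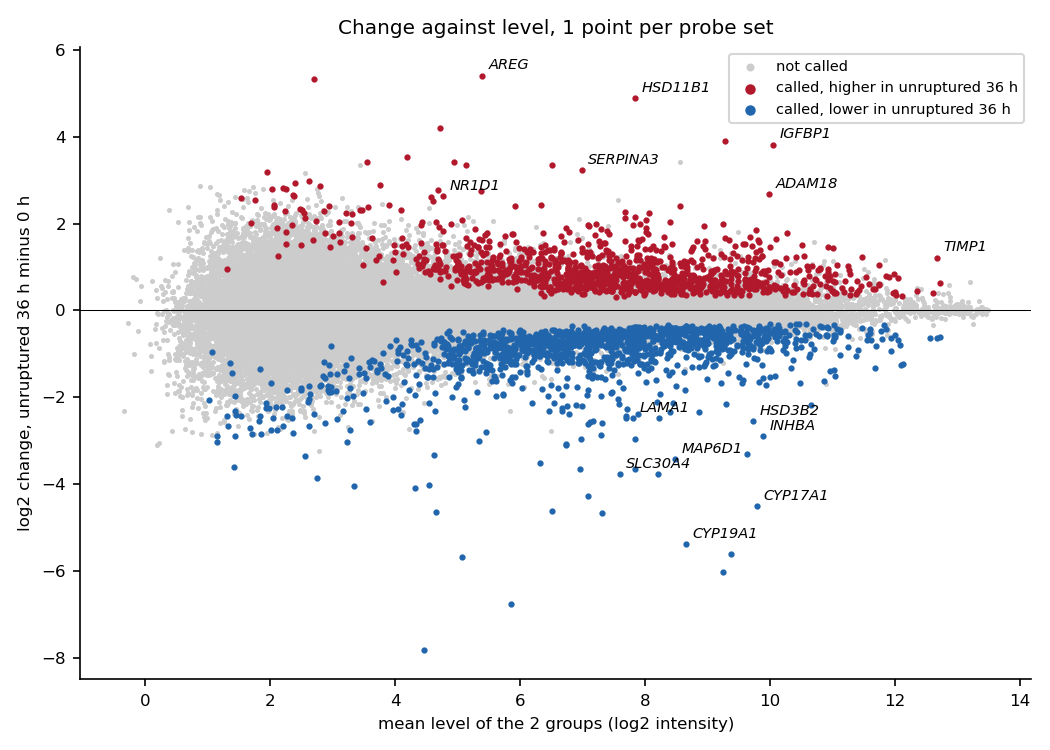
Change (log2, unruptured 36 h minus 0 h, vertical axis) against the mean level of both groups (log2 intensity, horizontal axis) for 52766 probe sets, with called ones in colour. CYP19A1 and CYP17A1 lie far below 0, AREG, HSD11B1 and IGFBP1 far above it, and probe sets with no gene name are drawn but not labelled.

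Estrogen and androgen enzymes fell furthest among named genes. CYP19A1, the aromatase that turns androgens into estrogens in granulosa cells, had levels of 5.56, 5.32, 7.05 and 5.96 in unruptured 36 h follicles, against a lowest, median and highest of 9.93, 11.65 and 12.12 at 0 h. The groups were more than 2 units apart at their nearest arrays. CYP19A1 fell by 5.37 ± 0.60 (SE), a 41.4-fold lower level (adjusted p = 5.67e-05). CYP17A1, the theca enzyme that makes androgens from pregnenolone and progesterone, had levels of 7.79, 7.83, 7.10 and 7.45 in unruptured 36 h follicles, against 11.56, 12.04 and 12.55 (lowest, median and highest) at 0 h. It was low in each of the 4 unruptured follicles, with a change of -4.50 ± 0.38 (22.7-fold, adjusted p = 7.81e-06), and its dimmer probe set was called in the same direction.

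The other 6 measured enzymes of androgen and estrogen synthesis were not called. HSD17B1, which makes estradiol from estrone, had a change of -1.17 ± 0.36 (adjusted p = 0.0702). CYB5A, the cytochrome that aids CYP17A1's androgen step, had a change of 0.26 ± 0.16 (adjusted p = 0.463). The changes of the 8 measured members were 4 positive and 4 negative, with a median of -0.05. Whether fewer cells of a type or less RNA per cell lowered a level cannot be told apart in whole follicles. The summed intensity of 11 theca markers ran from 5656 to 7546 in unruptured 36 h and from 8286 to 11807 in 0 h follicles, with no marker at 0. Without CYP17A1, a split chosen after its values were seen, the sums were 5428 to 7324 and 5276 to 6531, and overlapped. Among the remaining theca markers only HHIP, which binds hedgehog ligands, was called, with a change of -1.19 ± 0.24 (adjusted p = 0.00689) that did not pass in the fit of the 10 arrays alone, and the median over the 11 markers was 0.07.

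The measured genes of progesterone synthesis moved in both directions, and more of them fell. The list members CYP11A1, HSD3B1 and SCARB1 were not among those measured under a single symbol. Of 10 measured members 2 were higher and 6 lower, with a median of -1.04, where 3.35% and 3.82% of all genes were. STAR, which carries cholesterol into the mitochondrion, had levels of 12.96, 13.01, 13.28 and 12.93 in unruptured 36 h follicles, against 12.04, 12.37 and 12.77 (lowest, median and highest) at 0 h. The groups did not overlap, and STAR rose by 0.64 ± 0.14 (1.56-fold, adjusted p = 0.0109), a call lost without unruptured replicate 3 (adjusted p = 0.0517) and in the fit of the 10 arrays alone. The other higher member was TSPO, a cholesterol-binding protein of the outer mitochondrial membrane, at 0.95 ± 0.19 (adjusted p = 0.00717).

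HSD3B2, which makes progesterone from pregnenolone, had levels of 7.99, 9.13, 8.47 and 8.25 in unruptured 36 h follicles, against 9.97, 11.10 and 11.65 (lowest, median and highest) at 0 h. No unruptured follicle reached the lowest 0 h follicle, and HSD3B2 fell by 2.54 ± 0.38 (5.84-fold, adjusted p = 0.00078). The nuclear receptor NR5A2, a driver of steroid enzyme genes, had levels of 5.77, 8.86, 8.41 and 7.76 in unruptured 36 h follicles, against 8.80, 10.14 and 10.72 at 0 h. Its lowest 0 h follicle lay just below unruptured replicate 2, so the groups touched. All 3 of its probe sets were called, and the brightest had a change of -2.34 ± 0.46 (adjusted p = 0.00638), which was not called in the fit of the 10 arrays alone. STARD4, a cytosolic carrier of cholesterol, fell by 1.27 ± 0.30 (adjusted p = 0.0186), a call lost without unruptured replicate 1 (adjusted p = 0.0767). The other members that fell, chosen here after their values were seen, serve electron supply or transcription: the mitochondrial reductase FDXR (-1.12 ± 0.30), the reductase POR (-1.10 ± 0.15) and the nuclear receptor NR5A1 (-0.98 ± 0.21).

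Supply of cholesterol itself showed no calls. None of 12 measured genes of cholesterol synthesis and uptake passed in the limma fit, with a median of -0.14 and changes between -0.49 and 0.49. Nor did any of 7 measured prostaglandin genes, though the synthases PTGS1, PTGS2 and PTGES were not among those measured under a single symbol. Of 9 hormone receptors only PGRMC1, a heme protein of the progesterone receptor membrane component family, was called, at -0.93 ± 0.12 (adjusted p = 1.48e-04) with all 4 of its probe sets called lower. PGR, the nuclear progesterone receptor, had levels of 5.81, 5.22, 5.70 and 5.79 in unruptured 36 h follicles, against 5.93, 6.03 and 6.50 at 0 h. Its arrays did not overlap, yet its change of -0.52 ± 0.40 did not pass (adjusted p = 0.576), nor did it in the fit of the 10 arrays alone (adjusted p = 0.18).

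**Figure D2:**
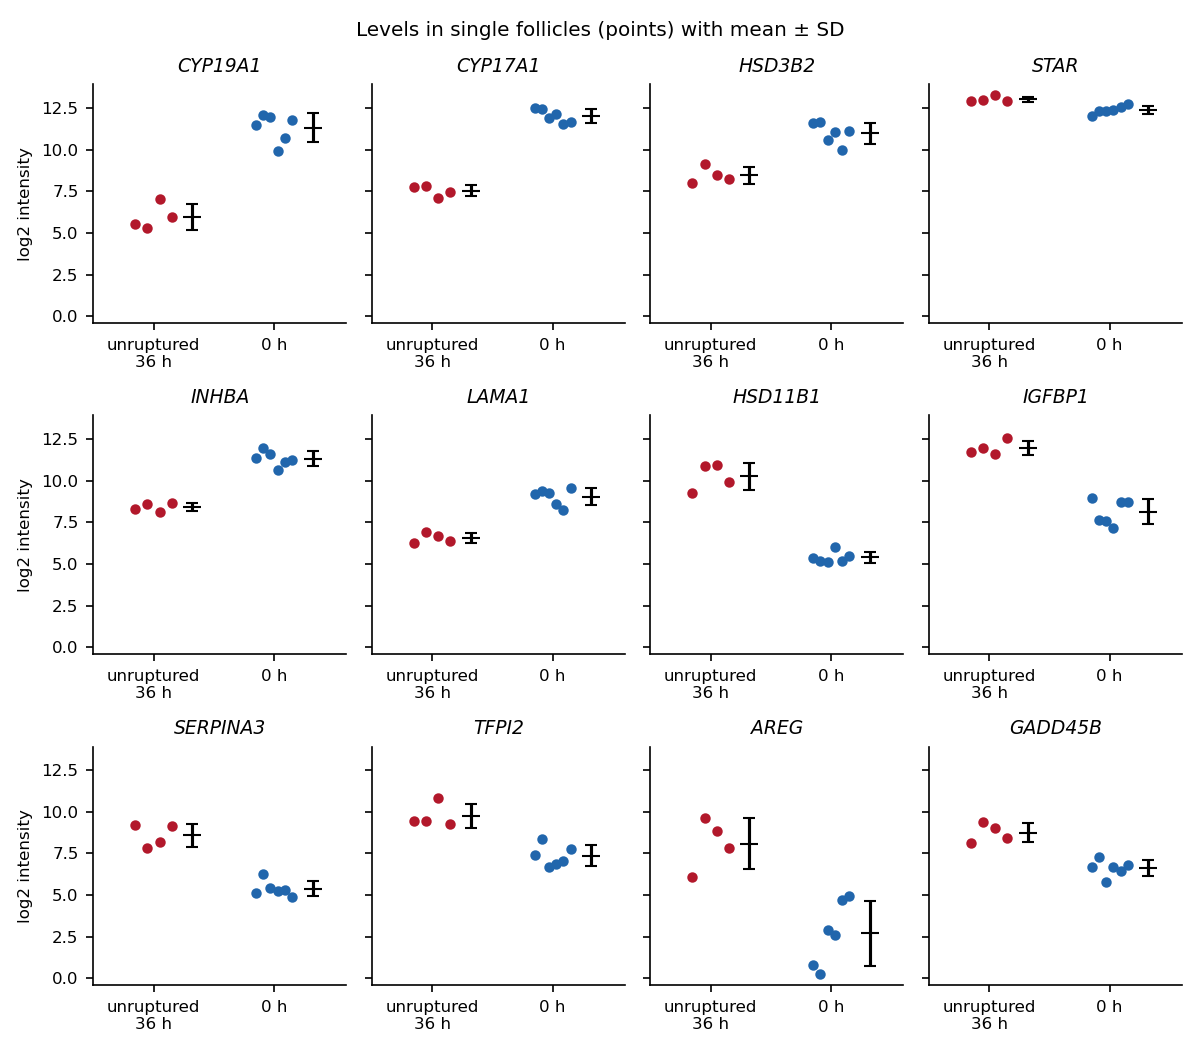
Level (log2 intensity, vertical axis) of 12 genes in each unruptured 36 h follicle (left in each panel, n = 4) and 0 h follicle (right, n = 6), 1 point per follicle, with mean and SD in black. All 12 genes separate the groups with no overlap, downward for CYP19A1, CYP17A1, HSD3B2, INHBA and LAMA1 and upward for the other 7. Non-overlap was a condition for choosing all of them except STAR.

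Granulosa genes of the antral stage were lower in part. INHBA, the subunit shared by activin A and inhibin A, had levels of 8.33, 8.63, 8.16 and 8.68 in unruptured 36 h follicles, against 10.67, 11.31 and 11.96 (lowest, median and highest) at 0 h. The groups stood nearly 2 units apart, and INHBA fell by 2.89 ± 0.42 (7.4-fold, adjusted p = 5.45e-04), as did its second probe set. SERPINE2, a protease inhibitor of granulosa cells, was the other of 13 members called, at -0.61 ± 0.14 (adjusted p = 0.0124), and the list's median was -0.61. Without unruptured replicate 2 the count of lower members was 4. INHA (-1.68 ± 0.53, adjusted p = 0.0765) and INHBB, the activin B subunit (-2.41 ± 0.76, adjusted p = 0.0791), missed the threshold. INHBB was dim, with 0.92, 3.69, 2.66 and 0.41 in unruptured 36 h follicles, against 1.95, 4.60 and 5.51 at 0 h, and its groups overlapped. AMH, the anti-Müllerian hormone of growing follicles, had a change of -1.31 ± 0.89 (adjusted p = 0.51).

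Most measured cell division genes fell. Each of the 19 measured members of the cell cycle list had a negative change, 13 were called lower and none higher, and the median was -0.81 against 0.02 over all genes. TOP2A, the topoisomerase that untangles chromosomes, had levels of 7.45, 7.12, 7.48 and 6.74 in unruptured 36 h follicles, against 8.38, 8.86 and 9.42 (lowest, median and highest) at 0 h. Its arrays did not overlap, and it fell by 1.64 ± 0.28 (3.11-fold, adjusted p = 0.00206). The subunits MCM5 (-1.13 ± 0.14, adjusted p = 1.65e-04) and MCM2 (-1.09 ± 0.13, adjusted p = 1.02e-04) of the helicase that opens replication origins fell by similar amounts.

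MKI67, a protein of dividing cells, had levels of 5.76, 6.00, 6.63 and 6.02 in unruptured 36 h follicles, against 6.87, 7.07 and 7.79 at 0 h. It did not overlap, but its call was marginal (-1.07 ± 0.30, adjusted p = 0.049) and was lost in 9 of 10 fits with an array left out, all but that without unruptured replicate 3 (adjusted p up to 0.142). Outside that list, SKP2, which targets cell cycle inhibitors for breakdown, fell by 2.14 ± 0.30 (adjusted p = 3.62e-04) and MELK, a mitotic kinase, by 1.75 ± 0.30 (adjusted p = 0.00219). SKP2 was at 6.76, 6.22, 6.16 and 6.94 in unruptured 36 h follicles, against 7.79, 8.72 and 9.41 at 0 h, and all 3 of its probe sets were called.

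Genes that hold the cell cycle back changed the other way in 4 of 11 cases, with none lower. GADD45B, a stress-response partner of checkpoint kinases, had levels of 8.15, 9.41, 9.03 and 8.43 in unruptured 36 h follicles, against 5.80, 6.69 and 7.29 (lowest, median and highest) at 0 h. The groups did not overlap, as the rule that chose GADD45B required. All 3 probe sets were called, the brightest at 2.13 ± 0.39 (4.39-fold, adjusted p = 0.00324). CDKN1A, the kinase inhibitor p21, rose by 1.27 ± 0.25 (adjusted p = 0.00652), and the p53 target CCNG1 by 0.85 ± 0.12 (adjusted p = 5.17e-04). The median over the 11 inhibitors was 0.23. CDKN1B and RB1, which act at entry to DNA replication, had changes of 0.10 ± 0.16 and -0.09 ± 0.09 and were not called.

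Ribosome assembly genes fell in part as well. Of 16 measured, 7 were lower and none higher, with 15 negative changes and a median of -0.54. Without unruptured replicate 3 the count was 4. NOP56, a core protein of the particles that methylate ribosomal RNA, had levels of 8.62, 8.49, 8.44 and 8.61 in unruptured 36 h follicles, against 9.29, 9.35 and 9.45 (lowest, median and highest) at 0 h. Spread within each group was small, with SDs of 0.09 and 0.06, and NOP56 fell by 0.82 ± 0.12 (adjusted p = 8.13e-04). NOLC1, a nucleolar scaffold, fell by 0.70 ± 0.12 (adjusted p = 0.00244), and RRP12, which helps export ribosomal subunits, by 0.84 ± 0.21 (adjusted p = 0.0264). The call for RRP12 was lost without 0 h replicate 1 or unruptured replicate 3 or 4 (adjusted p up to 0.0933), and its dimmer probe set was not called (-0.22). Oxidative phosphorylation had 1 lower member of 15, the complex III subunit UQCRFS1 (-0.58 ± 0.15, adjusted p = 0.0338), with 13 negative changes and a median of -0.25. Over all genes 3.82% were called lower, and 6745 of 14132 changes were negative. The UQCRFS1 call held in 3 of 10 fits with an array left out, those without 0 h replicate 4 or 5 or unruptured replicate 2.

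AREG, amphiregulin, relays the gonadotropin signal from granulosa to cumulus cells through the EGF receptor. It had levels of 6.08, 9.64, 8.83 and 7.81 in unruptured 36 h follicles, against 0.24, 2.74 and 4.95 (lowest, median and highest) at 0 h. Both groups were widely spread (SD 1.53 and 1.94), but no 0 h follicle came within 1 unit of an unruptured one. The change was 5.40 ± 0.87 (adjusted p = 0.00136), a 42.2-fold higher level, whose size is uncertain because the 0 h mean lay below the median of all probe sets. AREG had 1 probe set. No other of 9 measured EGF-like ligands and receptors was called, among them the receptors EGFR (-0.37 ± 0.37) and ERBB2 (0.16 ± 0.20).

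The hyaluronan matrix around the oocyte is the target of that signal. Of its 13 measured genes 1 was called higher, where 3.35% of all genes were, and this was PTX3, a pentraxin that crosslinks the matrix. PTX3 had levels of 6.67, 7.53, 7.10 and 6.95 in unruptured 36 h follicles, against 4.76, 5.65 and 6.20 at 0 h, without overlap, and rose by 1.47 ± 0.40 (adjusted p = 0.0387). That call held only without 0 h replicate 1 or 5 and was lost in the other 8 fits with an array left out (adjusted p up to 0.116). TNFAIP6, which transfers heavy chains onto hyaluronan, had 4.86, 7.20, 5.94 and 5.48 in unruptured 36 h follicles, against 3.56, 4.60 and 5.32 at 0 h, and its change of 1.36 ± 0.58 did not pass (adjusted p = 0.231). HAS2, the hyaluronan synthase of cumulus cells, was at 0.99 ± 0.67 (adjusted p = 0.506) with overlapping groups, and VCAN, the matrix proteoglycan versican, at 0.01 ± 0.20.

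Matrix proteases were higher in 4 of 21 cases and lower in none, where 3.35% and 3.82% of all genes were. Of the 21 changes 20 were positive, against 7387 of 14132 over all genes, and the median was 0.45. The count of higher members was 1 or 2 without 0 h replicate 1, 2, 3 or 6 or without any single unruptured follicle. MMP19, a metalloprotease of basement membranes, had 8.79, 8.78, 9.25 and 8.87 in unruptured 36 h follicles, against 6.73, 7.23 and 7.40 (lowest, median and highest) at 0 h. It rose by 1.80 ± 0.19 (3.48-fold, adjusted p = 3.61e-05) with a gap of more than 1 unit between groups. MMP1, the interstitial collagenase, had 5.93, 5.21, 5.83 and 4.04 in unruptured 36 h follicles, against 1.95, 2.89 and 3.98 at 0 h. Unruptured replicate 4 all but met the highest 0 h follicle, and the change of 2.31 ± 0.58 (adjusted p = 0.0269) kept its call only without 0 h replicate 3, 4 or 5 or unruptured replicate 4 (adjusted p up to 0.0919 otherwise). The 0 h mean of MMP1 lay below the median of all probe sets, so the size of this change is uncertain. PLAU, the plasminogen activator urokinase, rose by 0.93 ± 0.26 (adjusted p = 0.0452), a call kept only without 0 h replicate 1, 2 or 5. ADAMTS1, which cleaves versican, had 10.07, 9.66, 10.11 and 10.83 in unruptured 36 h follicles, against 8.81, 9.19 and 9.84 at 0 h, and was not called (0.87 ± 0.30, adjusted p = 0.122).

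Protease inhibitors rose in 5 of 13 measured cases and fell in 1. The median was 0.72, and the count of higher members stayed at 5 in each of the 10 fits with an array left out. SERPINA3, an acute-phase inhibitor of chymotrypsin-like proteases, had levels of 9.23, 7.82, 8.19 and 9.15 in unruptured 36 h follicles, against 4.90, 5.27 and 6.23 (lowest, median and highest) at 0 h. The gap between groups exceeded 1 unit, and SERPINA3 rose by 3.22 ± 0.32 (9.31-fold, adjusted p = 2.71e-05). Its probe sets disagreed: a second was called at 3.36, and 3 others were near 0 (-0.014, 0.23 and 0.0057).

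TFPI2, an inhibitor of plasmin and of tissue factor complexes, had 9.42, 9.47, 10.84 and 9.29 in unruptured 36 h follicles, against 6.66, 7.21 and 8.37 at 0 h. Unruptured replicate 3 stood above the other 3, the groups did not overlap, and the change was 2.40 ± 0.34 (adjusted p = 4.41e-04). Of its 4 other probe sets, 2 were called in the same direction and 1 had a change of -1.05 that was not called. SERPINF1, an antiangiogenic serpin, rose by 1.46 ± 0.19 (adjusted p = 1.72e-04). Also higher, and named after their values were seen, were TIMP1, an inhibitor of metalloproteases (1.22 ± 0.12, adjusted p = 2.43e-05), and SERPING1, the C1 inhibitor (1.07 ± 0.16, adjusted p = 7.21e-04).

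Basement membrane components changed in opposite directions. LAMA1, the laminin alpha 1 chain of epithelial-type basement membranes, had levels of 6.29, 6.95, 6.70 and 6.37 in unruptured 36 h follicles, against 8.26, 9.25 and 9.58 (lowest, median and highest) at 0 h. It fell by 2.48 ± 0.24 (5.56-fold, adjusted p = 2.43e-05), with more than 1 unit between the groups. LAMA2, the laminin alpha 2 chain, had 10.70, 10.30, 10.54 and 11.08 in unruptured 36 h follicles, against 9.40, 9.55 and 9.70 at 0 h. It rose by 1.12 ± 0.16 (adjusted p = 6.3e-04), and LAMB1, the beta 1 chain that pairs with either, rose by 0.83 ± 0.14 (adjusted p = 0.00218). Over the matrix list 3 of 22 members were higher and 2 lower, with a median of 0.15, and the count of lower members was 1 without 0 h replicate 1, 2, 3 or 6 or unruptured replicate 1, 3 or 4. The fibrillar collagens COL1A1 (0.00 ± 0.20) and COL3A1 (0.13 ± 0.24) were not called.

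Of 12 cell junction genes 1 was lower, where 3.82% of all genes were, and this was the adhesion protein CDH1. It was dim, with 2.76, -0.34, 1.14 and -0.09 in unruptured 36 h follicles, against 2.03, 3.10 and 3.91 at 0 h, and the groups overlapped. Its call (-2.24 ± 0.63, adjusted p = 0.0491) held only without 0 h replicate 2 or unruptured replicate 1. Of 10 epithelial markers CDH1 was also the only one called.

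Glucocorticoid genes formed the list with the highest share of members called higher. Of 11 measured, 5 rose and none fell, the median was 0.65, and the count was 3 without unruptured replicate 2 or 4. HSD11B1, the enzyme that turns inert cortisone into active cortisol, had levels of 9.28, 10.90, 10.99 and 9.95 in unruptured 36 h follicles, against 5.15, 5.28 and 6.05 (lowest, median and highest) at 0 h. The groups lay more than 3 units apart. HSD11B1 rose by 4.87 ± 0.53 (29.3-fold, adjusted p = 5.03e-05). ZBTB16, a transcription factor induced by the glucocorticoid and progesterone receptors, had 8.91, 9.39, 8.999 and 8.91 in unruptured 36 h follicles, against 7.20, 7.44 and 8.33 at 0 h, and rose by 1.47 ± 0.23 (2.76-fold, adjusted p = 0.00114).

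TSC22D3, the glucocorticoid-induced leucine zipper, rose by 1.04 ± 0.15 (adjusted p = 7.02e-04) and the kinase SGK1 by 0.65 ± 0.18 (adjusted p = 0.0401), both named after their values were seen. FKBP5, a chaperone partner of the receptor, just missed the threshold (1.42 ± 0.41, adjusted p = 0.0521), and the glucocorticoid receptor NR3C1 itself had a change of 0.08 ± 0.11. DUSP1, a phosphatase gene of the list, had a change of -0.27 ± 0.32, so the list did not move as one.

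PER1, the fifth called member, belongs to the circadian clock as well, a list with 5 of 13 higher, none lower and a median of 0.56. Without unruptured replicate 2 or 4 that count too was 3. NR1D1, a repressor in the clock loop, had levels of 5.75, 6.94, 5.93 and 5.72 in unruptured 36 h follicles, against 1.47, 3.71 and 4.88 (lowest, median and highest) at 0 h. It rose by 2.64 ± 0.53 (6.21-fold, adjusted p = 0.00689) without overlap. The size of the rise is uncertain because the 0 h mean of NR1D1 lay below the median of all probe sets. Its dimmer probe set was not called, nor was this one in the fit of the 10 arrays alone. TEF, a transcription factor under clock control, had 8.32, 8.68, 8.59 and 8.47 in unruptured 36 h follicles, against 7.17, 7.43 and 7.74 at 0 h, and rose by 1.08 ± 0.16 (adjusted p = 5.49e-04). The dimmer probe set of TEF was not called (0.35). PER1 had 8.15, 8.81, 8.19 and 8.61 in unruptured 36 h follicles, against 6.93, 7.23 and 7.72 at 0 h. Its rise of 1.16 ± 0.28 (adjusted p = 0.0193) lost its call without unruptured replicate 2 or 4 (adjusted p up to 0.0674).

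By the protocols, 0 h follicles were collected at clock hour 16, and 36 h after an injection at that hour falls at clock hour 4, so time of day and time after hCG cannot be told apart here. The 24 h follicles share the clock hour of 0 h. At 0, 12 and 24 h and in unruptured 36 h follicles, mean levels were 3.45, 4.41, 5.96 and 6.08 for NR1D1, and 7.28, 7.82, 8.34 and 8.44 for PER1. Both had a 24 h mean close to the 36 h one, and 24 h against 0 h was called for each, in a comparison with 3.36% of probe sets called (adjusted p = 0.011 and 0.0375). BHLHE40, a clock repressor named after its values were seen, had 7.18, 8.42, 7.28 and 8.19 in the same order, high in the groups of clock hour 4 and low in those of clock hour 16. Its change at 36 h was 1.01 ± 0.26 (adjusted p = 0.0304) and at 24 h 0.09 ± 0.26 (adjusted p = 0.915).

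Transcription factors induced by gonadotropin were higher in 3 of 16 cases and lower in none, with a median of 0.44. FOSL2, an AP-1 subunit, had 8.10, 9.07, 8.82 and 8.48 in unruptured 36 h follicles, against 7.15, 7.56 and 7.82 (lowest, median and highest) at 0 h, and rose by 1.13 ± 0.21 (adjusted p = 0.00356). CEBPB and CEBPD, factors needed in mice for luteinization or active in acute-phase responses, rose by 0.79 ± 0.20 and 1.23 ± 0.31 (adjusted p = 0.0257 and 0.0252). CEBPB lost its call without 0 h replicate 3 or unruptured replicate 2, 3 or 4, and CEBPD without 0 h replicate 3 or 5 or any single unruptured follicle, which left 1 called member without 0 h replicate 3 or unruptured replicate 2, 3 or 4. The early factors FOS (0.41 ± 0.45) and NR4A1 (-0.39 ± 0.49) and the luteal factor RUNX2 (1.13 ± 0.47, adjusted p = 0.218) were not called.

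Signalling of the BMP and TGF-beta family had 5 of 21 members higher and 1 lower, with a median of 0.21, and the count of higher members was 3 without unruptured replicate 1 and 2 without unruptured replicate 3 or 4. GDF15, a stress-induced ligand, rose by 1.38 ± 0.37 (adjusted p = 0.0397) with overlapping groups and kept its call only without 0 h replicate 1 or unruptured replicate 2. ID4, an inhibitor of helix-loop-helix factors and BMP target, rose by 1.33 ± 0.30 (adjusted p = 0.0159), lost without unruptured replicate 2 (adjusted p = 0.0648). BAMBI, a decoy receptor, had 8.39, 8.56, 8.86 and 8.20 in unruptured 36 h follicles, against 9.26, 9.73 and 10.27 at 0 h, and fell by 1.25 ± 0.23 (adjusted p = 0.00337). The inhibitory SMAD7, named after its values were seen, rose by 1.14 ± 0.21 (adjusted p = 0.00337).

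The cAMP pathway carries the signal of the gonadotropin receptor. Of its 17 measured genes 1 was higher and 1 lower, where 3.35% and 3.82% of all genes were. RGS2, a brake on G proteins, rose by 1.18 ± 0.32 (adjusted p = 0.0386), a call kept only without 0 h replicate 6 or unruptured replicate 1. PRKAR2B, a regulatory subunit of protein kinase A, had 9.49, 10.28, 9.77 and 9.54 in unruptured 36 h follicles, against 10.36, 10.77 and 11.01 at 0 h, and fell by 0.97 ± 0.18 (adjusted p = 0.00451).

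Of the metabolic and stress lists, calls were made for 2 of 16 genes in glycolysis and hypoxia, 3 of 11 in the unfolded protein response and 1 of 15 in lipid storage. Over all genes 3.35% were called higher and 3.82% lower. Among 16 glycolysis and hypoxia genes ADM, the vasodilator adrenomedullin, rose by 0.99 ± 0.21 (adjusted p = 0.0088, not called in the fit of the 10 arrays alone), and the pyruvate kinase PKM fell by 0.58 ± 0.16 (adjusted p = 0.0383), a call kept only without 0 h replicate 4 or unruptured replicate 2. Of 11 genes of the unfolded protein response, HERPUD1, of protein breakdown at the endoplasmic reticulum, rose by 0.59 ± 0.12 (adjusted p = 0.00897) and the secreted factor MANF fell by 0.76 ± 0.18 (adjusted p = 0.0213), lost without unruptured replicate 3 or 4 (adjusted p up to 0.0773). The list's other higher member, the transcription factor ATF4 (0.37 ± 0.10, adjusted p = 0.0352), kept its call only without 0 h replicate 1 or unruptured replicate 2. PNPLA2, the triglyceride lipase, was the only 1 of 15 lipid genes called (-0.60 ± 0.11, adjusted p = 0.00511), and its second probe set was not (0.058).

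**Figure D3:**
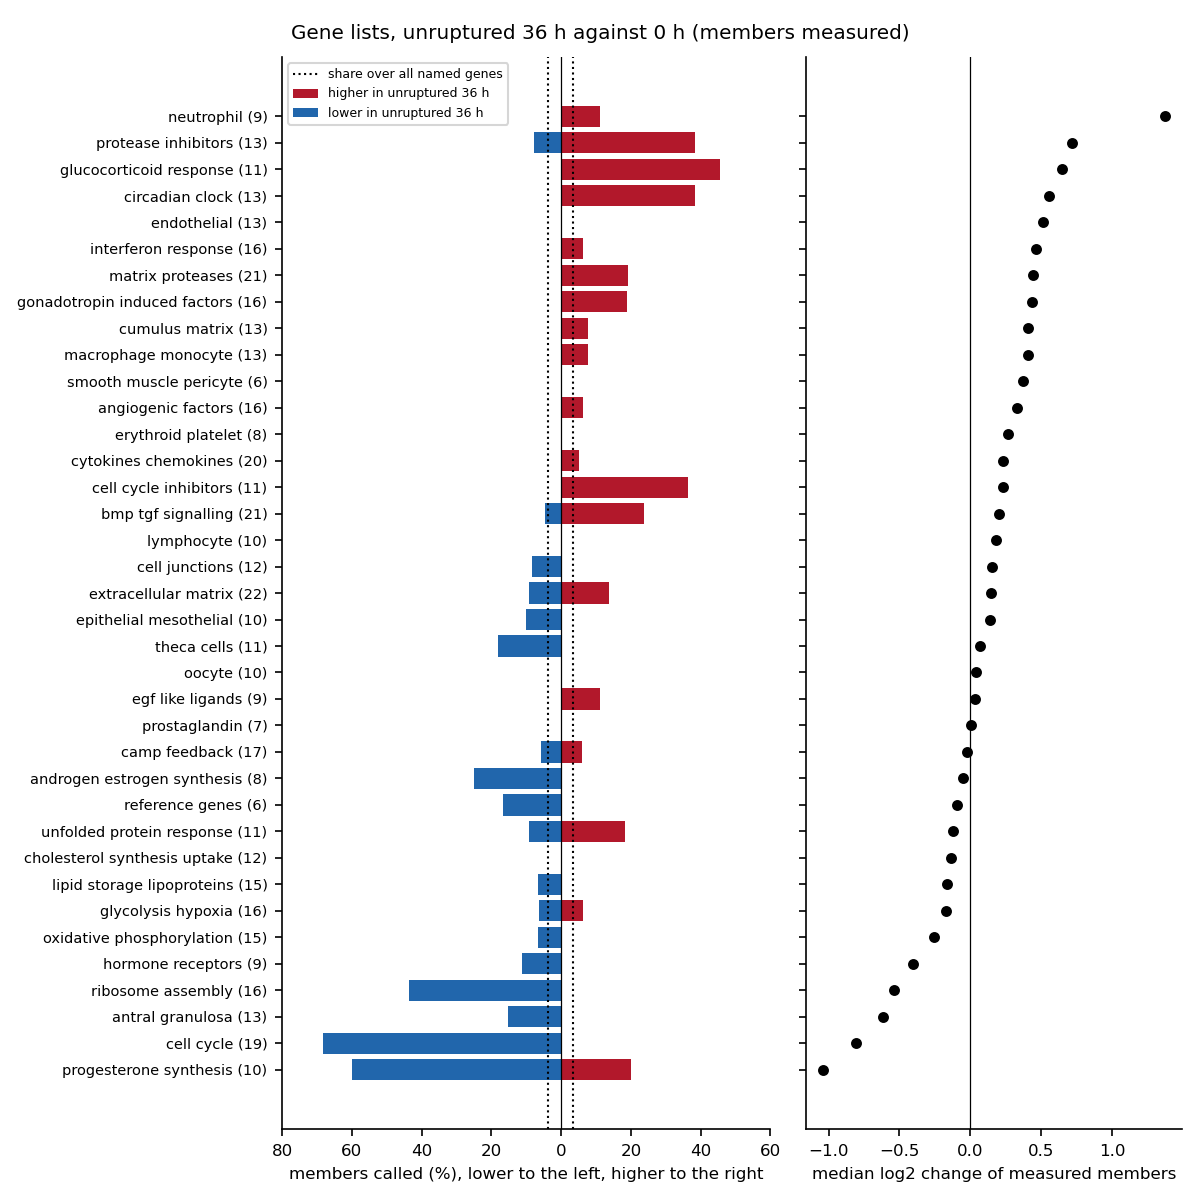
Share of measured members called higher (right) and lower (left) in unruptured 36 h against 0 h follicles for 37 gene lists (left panel, dotted lines at the 3.35% and 3.82% of all named genes) and each list's median log2 change (right panel). Cell cycle, progesterone synthesis and ribosome assembly reach furthest left, and glucocorticoid response, protease inhibitors and the circadian clock furthest right.

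Markers of vessel and blood-borne cells had mostly positive changes and few calls. Over all genes 7387 of 14132 changes were positive, and 3.35% were called higher. Of 13 endothelial markers none passed in limma, 12 changes were positive, the median was 0.51, and summed intensities ran from 2803 to 3736 in unruptured 36 h and from 1663 to 2850 in 0 h follicles. Only 1 of 16 angiogenic factors was called. This was ANGPT1, the ligand that steadies vessels through the receptor TEK, with 8.63, 8.63, 8.89 and 7.91 in unruptured 36 h follicles, against 6.34, 7.19 and 7.53 (lowest, median and highest) at 0 h. It rose by 1.48 ± 0.28 (adjusted p = 0.00448) without overlap, with 3 of 4 probe sets called and the dimmest at -2.49, not called. The vessel markers PECAM1 (0.79 ± 0.27, adjusted p = 0.106) and CDH5 (0.62 ± 0.18, adjusted p = 0.0553) did not pass. The part of vessel cells in the rise of ANGPT1 was not tested.

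Of 13 macrophage markers 1 was higher, LYZ, the secreted enzyme lysozyme (1.47 ± 0.37, adjusted p = 0.026), called in 4 of 10 fits with an array left out, those without 0 h replicate 1, 2 or 5 or unruptured replicate 4. Of the 13 changes 12 were positive, and the median was 0.41. CD14 (0.22 ± 0.24) and CSF1R (-0.19 ± 0.19), defining genes of the lineage, were not called, and CSF1R was the only member with a negative change. Marker sums were 2912 to 4169 in unruptured 36 h and 1784 to 3120 in 0 h follicles. Of 9 neutrophil markers 1 was higher, with a median of 1.37, the largest of the 37 lists. FCN1, a lectin of monocytes and neutrophils, had 5.99, 5.69, 6.30 and 5.53 in unruptured 36 h follicles, against 1.85, 3.36 and 4.14 at 0 h, and rose by 2.62 ± 0.40 (adjusted p = 8.28e-04), while its second probe set had a change of -0.41. The size of the rise is uncertain because the 0 h mean of FCN1 lay below the median of all probe sets. The granule genes S100A8 (1.81 ± 0.55, adjusted p = 0.0713) and S100A9 (1.37 ± 0.49, adjusted p = 0.13) missed the threshold, and the sums, 350 to 625 in unruptured 36 h and 111 to 551 in 0 h follicles, overlapped.

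None of the lymphocyte, erythroid and platelet, smooth muscle or oocyte markers was called. In unruptured 36 h follicles the sums were 2003 to 2565 for lymphocytes, 609 to 3018 for erythroid cells and platelets, 10810 to 14522 for smooth muscle and 725 to 1198 for the oocyte. In 0 h follicles they were 1846 to 3614, 590 to 2931, 7559 to 11057 and 618 to 1651 for the same cell types. Epithelial markers summed to 1723 to 2837 in unruptured 36 h and 1028 to 2048 in 0 h follicles. Of 20 cytokine and chemokine genes 1 was called, IL1RN, the interleukin 1 receptor antagonist, which rose by 1.36 ± 0.30 (adjusted p = 0.0137) but did not pass in the fit of the 10 arrays alone. Both group means of IL1RN lay below the median of all probe sets, so the size is uncertain. Its 2 other probe sets were not called. IL6 (0.44 ± 0.48) and CXCL8 (0.25 ± 0.46), inflammatory mediators, were not called. IFIT3 was the only 1 of 16 interferon-induced genes to pass (0.96 ± 0.20, adjusted p = 0.0101), with a list median of 0.46. Among all genes 3.35% were called higher.

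The reference genes ACTB (0.12 ± 0.08), B2M (0.13 ± 0.09) and YWHAZ (0.05 ± 0.08) were not called. HPRT1, a purine salvage enzyme often used as a reference, was the 1 of 6 that passed. It had 7.86, 8.03, 7.91 and 7.72 in unruptured 36 h follicles, against 8.44, 8.54 and 8.64 (lowest, median and highest) at 0 h, and fell by 0.67 ± 0.12 (adjusted p = 0.00307).

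Several of the largest changes lay outside the lists. IGFBP1, a secreted binding protein of insulin-like growth factors, had levels of 11.72, 11.96, 11.60 and 12.56 in unruptured 36 h follicles, against 7.19, 8.18 and 8.99 (lowest, median and highest) at 0 h. It rose by 3.81 ± 0.40 (14-fold, adjusted p = 3.8e-05), and its groups lay more than 2 units apart. ADAM18, a disintegrin protein known from sperm, had 11.47, 11.07, 11.67 and 11.10 in unruptured 36 h follicles, against a mean of 8.66 ± 1.31 (SD, n = 6) at 0 h. It rose without overlap by 2.67 ± 0.48 (adjusted p = 0.00302), its dimmer probe set was not called (0.70), and the call was lost in the fit of the 10 arrays alone. ABCA6, a lipid transporter family member, rose by 2.42 ± 0.28 (adjusted p = 8.32e-05), with 7.11, 7.21, 7.49 and 8.35 in unruptured 36 h follicles, against 4.46, 5.16 and 5.51 at 0 h.

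DEPP1, a target of FOXO factors, had 9.02, 8.24, 9.05 and 8.96 in unruptured 36 h follicles, against 5.71, 6.53 and 7.74 at 0 h, and rose by 2.27 ± 0.35 (adjusted p = 8.64e-04). The dimmer probe set of DEPP1 was not called (0.36). NT5E, the ectoenzyme CD73 that makes adenosine, rose by 2.16 ± 0.36 (adjusted p = 0.00183), but its 2 other probe sets were not called (-0.069 and 0.60). Further rises were in GPRC5B, an orphan receptor (2.03 ± 0.28, all 3 probe sets called), HIF3A, a hypoxia-inducible factor subunit (1.95 ± 0.27), and APCDD1, a WNT inhibitor (1.95 ± 0.31). The groups of these 3 genes did not overlap, as the rule that chose them required.

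Among the genes chosen, losses outside the lists were led by SLC30A4, a zinc exporter. It had 4.89, 6.53, 5.54 and 5.92 in unruptured 36 h follicles, against 8.67, 9.66 and 10.03 (lowest, median and highest) at 0 h. It fell by 3.77 ± 0.64 (13.6-fold, adjusted p = 0.002), while its dimmer probe set had a change of 1.07 that was not called. MAP6D1, a microtubule-stabilizing protein, had 5.79, 7.57, 6.93 and 6.79 in unruptured 36 h follicles, against 9.35, 10.30 and 10.98 at 0 h, and fell by 3.42 ± 0.40 (10.7-fold, adjusted p = 8.32e-05). Both groups of these genes stood more than 1 unit apart.

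CHSY3, a chondroitin synthase, fell by 2.39 ± 0.32 (adjusted p = 2.47e-04), the membrane protein GPR137C by 2.22 ± 0.28 (adjusted p = 1.65e-04) and HSDL1, a dehydrogenase-like protein, by 2.15 ± 0.32 (adjusted p = 7.95e-04). ST14, the membrane protease matriptase, fell by 2.17 ± 0.24 (adjusted p = 6.05e-05) on its brightest probe set, and its 4 other, dimmer sets had changes of 0.077 to 0.48 and were not called. EFNB1, the ligand ephrin-B1, fell by 1.78 ± 0.21 (adjusted p = 8.32e-05) and SLC26A2, the sulfate transporter that feeds proteoglycan synthesis, by 1.67 ± 0.18 (adjusted p = 5.34e-05). Of the 4 other probe sets of SLC26A2, 2 were called lower and 2 were not called (-0.68 and -0.75). Non-overlap of the groups was a condition for choosing these 6 genes, a condition that 12.2% of all genes met.

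The unruptured 36 h follicles were set beside those of 24 h, the last group before them. Only 2 probe sets (0.00379%) were called by limma, both of SERPINA3 and both lower at 36 h (-2.67 ± 0.36 and -2.64 ± 0.38, adjusted p = 0.0255 and 0.042), and 3298 had an unadjusted p under 0.05. No probe set was called without 24 h replicate 3 or 4, and 1 was without 24 h replicate 1 or 2 or unruptured replicate 3 or 4. Leaving out unruptured replicate 1 gave 5 and unruptured replicate 2 gave 4. Means of SERPINA3 at 0, 12 and 24 h and in unruptured 36 h follicles were 5.38, 11.86, 11.26 and 8.60, so its level at 36 h lay between those of 0 and 24 h. CYP19A1 had 11.34, 10.12, 6.96 and 5.97 and CYP17A1 12.05, 10.15, 7.82 and 7.55 in the same order. IGFBP1 had 8.15, 9.23, 10.55 and 11.96.

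**Figure D4:**
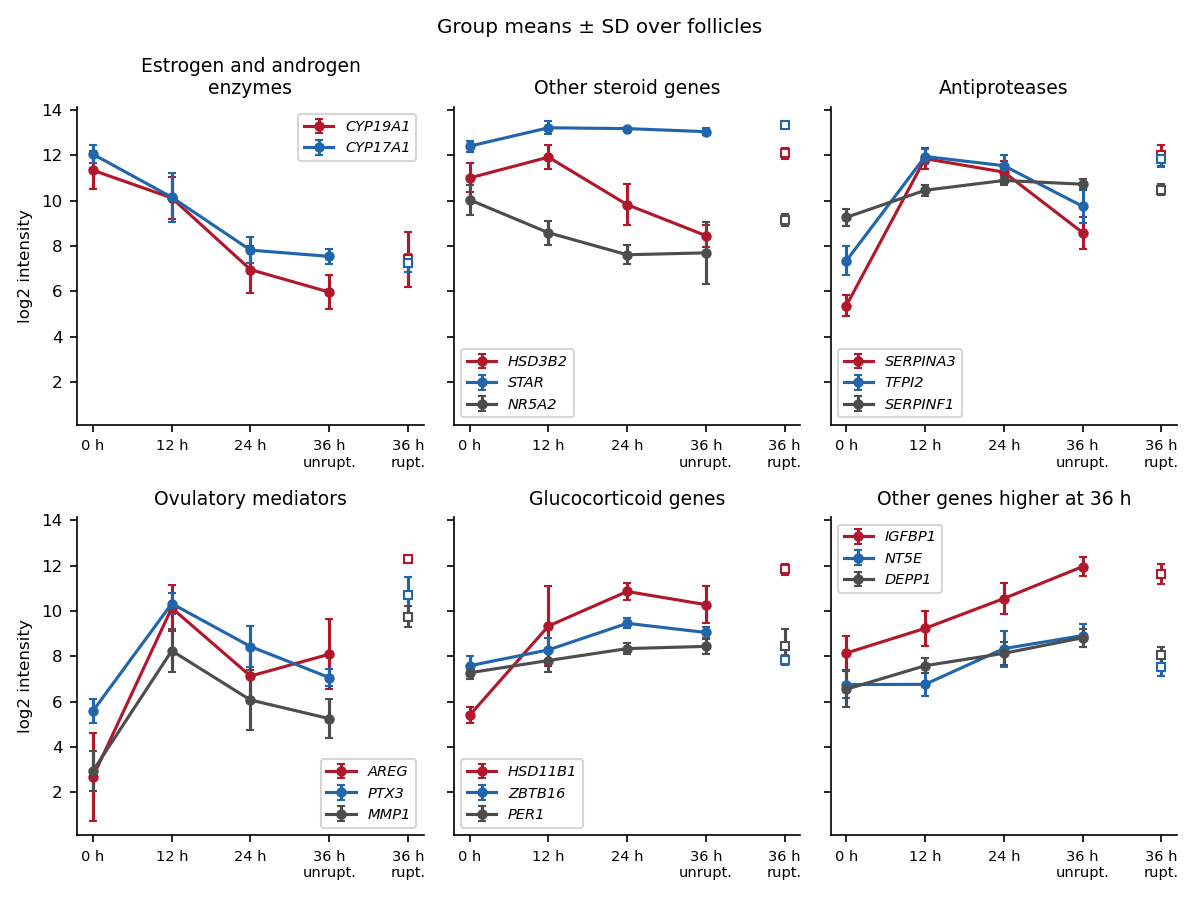
Mean level (log2 intensity, vertical axis) with SD for 17 genes at 0, 12 and 24 h and in unruptured 36 h follicles (joined circles), and in ruptured 36 h follicles (open squares), with n = 6 at 0 h and 4 elsewhere. CYP19A1 and CYP17A1 are low in both 36 h groups, while HSD3B2, SERPINA3, AREG, PTX3 and MMP1 are lower in unruptured than in ruptured follicles.

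Against ruptured follicles of the same hour, 5181 probe sets (9.82%) were called, 2549 (4.83%) higher and 2632 (4.99%) lower in ruptured ones. HSD3B2 and INHBA, which were low in unruptured follicles against 0 h, were higher in ruptured ones. HSD3B2 averaged 12.09 ± 0.26 in ruptured and 8.46 ± 0.49 in unruptured follicles (SD, n = 4 each), a difference of 3.63 ± 0.42 (SE, adjusted p = 4.48e-05), and INHBA 11.65 ± 0.56 and 8.45 ± 0.25, a difference of 3.20 ± 0.46 (adjusted p = 2.45e-04). For CYP17A1 the difference was -0.30 ± 0.41 (adjusted p = 0.741) and for CYP19A1 1.44 ± 0.66 (adjusted p = 0.198). AREG was 4.20 ± 0.95 higher in ruptured follicles (adjusted p = 0.00795), SERPINA3 3.41 ± 0.36 (adjusted p = 1.94e-05), PTX3 3.63 ± 0.43 (adjusted p = 5.94e-05) and MMP1 4.50 ± 0.64 (adjusted p = 2.33e-04). IGFBP1 differed by -0.32 ± 0.44 (adjusted p = 0.743).

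HIF3A was called the other way, lower in ruptured follicles by 2.05 on the log2 scale (6.03 ± 0.70 in ruptured and 8.08 ± 0.35 in unruptured, adjusted p = 2.86e-04), and so were ZBTB16 (-1.21 ± 0.25, adjusted p = 0.00466), LAMA2 (-0.93 ± 0.18, adjusted p = 0.00274), NT5E (-1.40 ± 0.40, adjusted p = 0.03) and TEF (-0.82 ± 0.17, adjusted p = 0.00444). Among called, non-overlapping genes that passed a brightness limit, 5 had the largest difference between ruptured and unruptured follicles. They were not called in unruptured 36 h against 0 h follicles. All 5 had unruptured means below the median probe set, so the size of the difference from ruptured follicles is uncertain and a change from 0 h could not be read at this brightness. NPPC, the peptide that holds the oocyte in meiotic arrest, had 1.13, 1.40, 1.83 and 1.09 in unruptured 36 h follicles, against 1.09, 1.22 and 1.91 at 0 h, and averaged 5.97 ± 0.74 in ruptured ones. The cytokine LIF averaged 9.20 ± 0.50 in ruptured, 4.49 ± 0.29 in unruptured and 4.30 ± 0.36 in 0 h follicles. The stromelysin MMP3, the BMP antagonist CHRDL2 and the phosphatase DUSP5 averaged at most 2.25 in unruptured follicles, had changes of 0.04 ± 0.78, 0.10 ± 0.51 and -1.25 ± 0.85 against 0 h with overlapping arrays, and each was 4.71 to 4.88 higher in ruptured than in unruptured follicles.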

How the data were processed

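RNA of 22 single follicles was measured on 1-colour Affymetrix rhesus macaque arrays. The deposited intensities, 1 value per probe set, were made with RMA per the submitters' processing notes. They ran from 0.0361 to 15137, a linear scale, so log2 was taken here of the deposited values. Of 52865 probe sets, 99 controls were left out. Gene symbols came from the platform annotation (24956 probe sets with 1 symbol, 361 with several, 27449 with none), and each gene was read from its brightest probe set.

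Group means of all 22 arrays in 5 groups were fitted with limma 3.58.1 in R 4.3.3 and tested two-sided, with adjustment by Benjamini and Hochberg across 52766 probe sets, and the fit was tested on simulated data. The 86 named genes were the 15 highest and 15 lowest non-overlapping called genes, up to 3 called members of each of 37 lists (460 of 623 genes measured), a panel of 16, and up to 5 of the largest non-overlapping called changes against 24 h and ruptured follicles. Apart from list and panel genes, the higher group mean had to lie at least 1 log2 unit above the median of all probe sets. Placeholder symbols were left out there. Further list members in the text were chosen after their values were seen. Members and lists were chosen with earlier results of these data known. The number of arrays limits the precision. Batches and detection calls were not given.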

Additional observations from a re-analysis of the deposited data

Results flagged for a closer look

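Single follicles stood apart from the others of their group, by Dixon's criterion at 95%, in 13 of 172 gene and group pairs examined, and chance flags about 1 in 20 such groups. Among unruptured 36 h follicles, replicate 3 had the highest TFPI2 (10.84, the others 9.29 to 9.47) and the lowest MMP3 (0.27, the others 1.88 to 2.18). Unruptured replicate 2 had the highest NR1D1 (6.94, the others 5.72 to 5.93) and the lowest DEPP1 (8.24, the others 8.96 to 9.05), and unruptured replicate 1 the lowest CEBPD (9.75, the others 9.91 to 9.94). Among 0 h follicles, replicate 4 had the highest HSD11B1 (6.05) and the lowest MANF (9.90), INHBB (1.95) and DUSP5 (0.49). At 0 h, replicate 3 had the lowest CDKN1A (6.76), LIF (3.60) and RRP12 (6.25), and replicate 6 the lowest IL1RN (2.15). The calls for TFPI2, NR1D1, DEPP1, HSD11B1, CDKN1A and IL1RN were kept in each of the 10 fits with an array left out.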

How the results depend on the processing

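The total of 2492 called probe sets, with 1095 higher and 1397 lower, became 1365, 558 and 807 when only the arrays of both groups were fitted and 3945, 1823 and 2122 when only probe sets above the median were tested. With a replicate block it became 827, 365 and 462. Leaving out an array gave 1423 to 2116, 537 to 901 and 846 to 1219. The 838 changes of at least 2-fold became 483 with 16 added before log2, 508 with the block and 619 to 807 with an array left out. Against 24 h, the 2 probe sets became 4 with 16 added and above the median, 10 with trend and robust eBayes, 0 with the RNA quality index, the block or only those groups, and 0 to 5 with an array left out. Between ruptured and unruptured follicles, 5181 became 34 with the block, 1318 with only those groups and 3590 to 4599 with an array left out. Ruptured and unruptured arrays share no replicate number, so the block fit links them only through 0 h replicates 5 and 6. Same-numbered unruptured and 0 h arrays did not deviate together over all probe sets (r from -0.05 to 0.02). Arrays of other numbers had r from -0.05 to 0.09, so this check cannot tell whether a number stands for a shared animal or batch. Quantile normalization, median centring and array weights left each of these counts within 1.5 times.

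Of the 76 called named genes, 57 kept their call in each of the 10 fits with an array left out, 75 with quantile normalization, 75 with centring, 76 with array weights, 74 with 16 added before log2 (losing CDH1 and MMP1), 73 with the RNA quality index, 55 with only the 10 arrays (losing ADAM18, ADM, ATF4, CDH1, CEBPB, CEBPD, GDF15, HHIP, ID4, IL1RN, LYZ, MMP1, NR1D1, NR5A2, PKM, PLAU, RGS2, RRP12, STAR, STARD4 and UQCRFS1) and 54 with the block. With the block the calls for ADM, ATF4, CDH1, GDF15, HHIP, IFIT3, IL1RN, LYZ, MANF, MKI67 and MMP1 were lost. So were those for NR1D1, NR5A2, PKM, PLAU, PRKAR2B, PTX3, RRP12, SERPINE2, SLC30A4, STARD4 and UQCRFS1. None of these fits reversed a call. Other probe sets had the opposite sign for ANGPT1 (-2.49), FCN1 (-0.41), NT5E (-0.069), PNPLA2 (0.058), SERPINA3 (-0.014), SLC30A4 (1.07), ST14 (0.30, 0.077, 0.25 and 0.48) and TFPI2 (-1.05). A few uncalled genes changed sign: MMP3 (-0.12 with 16 added, -0.28 with the block, -0.47 to 0.48 with an array left out), CHRDL2 (-0.30 to 0.33) and NPPC (-0.14 to 0.12). Apart from where fewer arrays or probe sets were used, the cause was not tested. Dim genes have changes of uncertain size, such as AREG, FCN1, MMP1 and NR1D1 at 0 h, and IL1RN, CDH1 and INHBB in both groups.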
